A study of Mus musculus with 68 samples.

Results

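The transmitter that a neuron releases is set by a small number of synthetic enzymes and transporters, and 9 of their genes were followed here through a gain-of-function screen: Chat, Slc18a3 and Slc5a7 for acetylcholine, Slc17a6 for glutamate, Gad1, Gad2 and Slc32a1 for GABA, Slc6a5 for glycine and Th for catecholamines. They were chosen by symbol, as the transcript clusters of the array annotated to these genes. All 9 were measured, each by 1 transcript cluster, among 19938 genes in all.

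The study made spinal motor neurons from C57/BL6 mouse embryonic stem (ES) cells, forced candidate determinants of phrenic identity on them (phrenic neurons drive the diaphragm), and asked which candidates shifted expression against cells given yellow fluorescent protein (YFP). ES cells were grown as embryoid bodies, patterned from day 2 with retinoic acid plus a Smoothened agonist, and dissociated on day 5, when motor neurons were isolated magnetically by a surface reporter transgene, CD2 or CD14. Doxycycline then switched on 1 or 2 genes during 30 hours of culture, except that in some experiments with Notch intracellular domains the transgene was on only for the last 10 hours. Total RNA was hybridised to 68 microarrays, 45 from CD2 cells and 23 from CD14 cells.

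The CD2 lines expressed Arid5b, Btbd3, Chd5, DNLhx3, Hey1, Hoxa5, Hoxc6, Klf5, Klf6, Lhx3, Notch1 ICD (10), Notch1 ICD (30), Pou3f1, Sfmbt2, Tox, Vwc2, Zbtb7c or Zic1, and H4 parental cells were a further CD2 group. The CD14 lines expressed NERT (10), NERT (30), Pou3f1, Pou3f1-FLAG, or Pou3f1 together with DNLhx3, Hoxa5, Hoxc6 or Lhx3. Each of these 27 groups was set against the YFP cells of the same reporter. YFP CD2 and YFP CD14 had 4 arrays each, Pou3f1 CD2 had 4, H4 parental had 3, and the other lines had 2. Names are spelled as the labels give them, and no source used here spells out DN, NERT, H4, E3 or the bracketed numbers. E3 parental CD14 cells had 1 array, and 2 arrays of induced E3 parental cells lay alone in a batch of their own, so these 3 are given as values only. All cells carried a reporter transgene and had been selected by it, in the controls as well. Nothing in the labels says that the replicates came from separate cultures, and the p-values may therefore reflect technical spread alone.

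Spinal motor neurons make acetylcholine with choline acetyltransferase (Chat), load it into vesicles with the transporter encoded by Slc18a3, and recover choline through the transporter encoded by Slc5a7. Slc18a3 lies inside the Chat gene on the same strand, an arrangement known as the cholinergic gene locus. Glutamatergic, GABAergic and glycinergic interneurons of the ventral spinal cord arise beside motor neurons from neighbouring progenitors, and Lhx3 is a LIM-homeodomain factor used both by young motor neurons and by one such interneuron class.

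The genes lie in the mouse genome (GRCm38.p6) as follows. Chat spans chr14:32408203-32465909 and Slc18a3 spans chr14:32462437-32464850 within it. Slc5a7 spans chr17:54273590-54299038, Slc17a6 chr7:51621830-51671126, Slc6a5 chr7:49906984-49963864 and Th chr7:142892779-142899995. Gad1 spans chr2:70561303-70602014, Gad2 chr2:22621015-22693877 and Slc32a1 chr2:158607260-158615747. The positions of the probes were not examined, so signal of Slc18a3 and Chat from shared transcripts cannot be told apart here.

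The 250 bases before the start of 5 of these genes are shown because their expression moved most across the lines: the 3 cholinergic genes, all called lower in 3 of the lines, Slc17a6, which rose in some of them, and Th, which changed in more lines than the other 8. The sequences come from RefSeq (GRCm38.p6), which held a window for all 9 genes and 2 windows for Slc17a6 and for Slc6a5. They run 5′ to 3′ on the gene's strand, and capitals mark matches to 11 motifs searched on both strands. Coordinates are chr14:32465910-32466159 for Chat, chr14:32464851-32465100 for Slc18a3 and chr17:54299035-54299284 for Slc5a7, all minus strand, chr7:51624387-51624636 for the second Slc17a6 window, plus strand, and chr7:142899996-142900245 for Th, minus strand. This second Slc17a6 window lies within the gene's span and holds more of the matches. The first, chr7:51621580-51621829, lies before the span, is not printed and held 1 match, a TAAT.
Chat: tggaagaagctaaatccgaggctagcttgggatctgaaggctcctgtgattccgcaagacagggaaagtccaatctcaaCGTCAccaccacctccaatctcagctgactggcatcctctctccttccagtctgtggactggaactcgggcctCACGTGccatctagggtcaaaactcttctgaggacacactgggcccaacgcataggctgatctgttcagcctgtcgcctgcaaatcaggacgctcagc
Slc18a3: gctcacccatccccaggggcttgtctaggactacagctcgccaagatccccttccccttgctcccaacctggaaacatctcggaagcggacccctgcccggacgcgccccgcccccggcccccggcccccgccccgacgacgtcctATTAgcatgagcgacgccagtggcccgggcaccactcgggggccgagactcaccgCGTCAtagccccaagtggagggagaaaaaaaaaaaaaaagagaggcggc
Slc5a7: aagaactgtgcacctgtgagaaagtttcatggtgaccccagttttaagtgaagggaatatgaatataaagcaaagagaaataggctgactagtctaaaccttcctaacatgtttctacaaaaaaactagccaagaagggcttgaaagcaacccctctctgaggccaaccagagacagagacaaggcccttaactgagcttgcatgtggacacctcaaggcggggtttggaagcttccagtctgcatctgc
Slc17a6: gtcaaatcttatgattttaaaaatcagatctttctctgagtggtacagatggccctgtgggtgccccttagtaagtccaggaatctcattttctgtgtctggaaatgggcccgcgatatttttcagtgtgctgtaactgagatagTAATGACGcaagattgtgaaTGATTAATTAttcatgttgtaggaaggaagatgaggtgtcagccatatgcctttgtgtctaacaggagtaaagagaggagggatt
Th: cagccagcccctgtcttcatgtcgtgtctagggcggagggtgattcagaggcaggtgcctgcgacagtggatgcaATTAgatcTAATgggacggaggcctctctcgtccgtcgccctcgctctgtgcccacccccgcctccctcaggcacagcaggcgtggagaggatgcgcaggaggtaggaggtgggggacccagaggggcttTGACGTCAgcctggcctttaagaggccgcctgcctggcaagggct

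The motifs were the POU octamer ATGCAAAT, the LIM-homeodomain motif TAATTA and the TAAT core within it, the CSL motif GTGGGAA, the E-boxes CACGTG and CACGCG, the left part of the RE1 element TTCAGCACC, the Hox and Pbx motif TGATTNAT, the cyclic AMP response element TGACGTCA and the TGACG within it, and the GATA motif AGATAA. The Chat window held CACGTG at bases -98 to -93, a motif present in 6.02% of 32841 RefSeq windows of the same length. The Th window held TGACGTCA at bases -45 to -38, as did 1.55% of windows. The second Slc17a6 window held TAATTA at -81 to -76 and an overlapping TGATTNAT at -85 to -78, which were present in 4.84% and 2.83% of windows. TGACG, found in 17.8% of windows, lay at -171 to -167 in Chat, -49 to -45 in Slc18a3 and -102 to -98 in the second Slc17a6 window, within the TGACGTCA of Th, and in Gad2 and the first Slc6a5 window. TAAT, found in 54.9%, lay in Slc18a3, Th, Gad1 and both windows of Slc17a6 and of Slc6a5, and TGATTNAT lay in the first Slc6a5 window too. None of the 11 motifs was found in the Slc5a7 window or in that of Slc32a1. The POU octamer (1.6% of windows) was in no window of the 9 genes, nor were CACGCG (7.62%), the RE1 part (0.301%) and AGATAA (9.99%), and GTGGGAA (5.41%) was in the first Slc6a5 window only. These are matches of letters and no record of binding.

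Isl1, a motor neuron determinant, read 12.46 to 12.89 in YFP CD2 cells and 12.74 to 12.97 in YFP CD14 cells on the log2 scale. Intensities of different probe sets cannot be compared and carry no background level, so whether the cells had the labelled identity was not tested by these values. Arrays fell into 8 numbered batches, 0 to 7, by their titles. CD2 YFP cells lay in batches 1 to 3 and CD14 YFP cells in batches 6 and 7, so CD2 lines of batches 4 to 6 reached YFP only through groups present in several batches. In batch 4, 6 arrays (Hoxa5, Chd5, H4 parental, Arid5b and 2 Pou3f1 arrays) stood apart, with Slc5a7 at 9.87 to 10.23 against 10.78 to 10.84 in its other 3 arrays, and results that rest on them are also given without them. In 28 checks the induced mouse gene itself rose past the threshold in 15 and fell in 0. It was not called for Lhx3 in DNLhx3 cells (0.33, adjusted p = 0.586) and Pou3f1+DNLhx3 cells (0.60, 0.372), for Pou3f1 in Pou3f1 CD14 cells (0.45, 0.583) and Pou3f1-FLAG cells (0.48, 0.182), or for Notch1 in Notch1 ICD (10) cells (0.57, 0.428). Nor was it called in Arid5b (0.10, 0.922), Btbd3 (0.18, 0.853), Chd5 (0.40, 0.82) or Hoxa5 (1.17, 0.323) cells. The same held for Klf6 (-0.30, 0.425), Sfmbt2 (-0.41, 0.652), Tox (0.54, 0.551) and Zbtb7c (-0.05, 0.95) cells. Whether the probes lie in the induced sequence was not examined.

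Values below are deposited log2 intensities. A difference is the line minus YFP, or the first line minus the second, with its standard error (SE), from a limma model with a term for each group and each batch. A gene is said to have risen or fallen at an adjusted p below 0.05 after Benjamini-Hochberg correction over all 19938 genes of that comparison. All comparisons of 1 reporter share the same YFP arrays. RNA was extracted from cell populations, so fewer cells of a type and less RNA per cell cannot be told apart.

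Of the 243 pairs of a transmitter gene and a line, 28 passed the threshold against YFP, 6 higher and 22 lower. That was 11.5% of pairs, against 1.99% of all gene and line pairs. Between lines, 21 of 99 pairs passed, 10 higher and 11 lower, or 21.2% against 3.04%. Th, the rate-limiting enzyme of catecholamine synthesis, fell in 9 of 27 lines, Chat fell in 5, Slc5a7 in 4 and Slc18a3 in 3. Slc17a6, the vesicular glutamate transporter of many brainstem and spinal neurons, rose in 4 lines. Gad2 rose in 1 and fell in 1, Slc32a1 rose in 1, and Gad1 and Slc6a5 changed in 0 of 27. The median difference of the 9 genes was -0.43 in DNLhx3 cells, -0.18 in Pou3f1+DNLhx3 cells, -0.14 in NERT (30) cells and -0.17 in Notch1 ICD (30) cells, where the median of all genes was -0.02, -0.01, -0.06 and -0.03. As many lines as Th were reached by 0.176% of all genes, as many as Chat by 2.01%, and as many as Slc5a7 or Slc17a6 by 3.48%. The share was 6.99% for Slc18a3, 13.0% for Gad2 and 25.7% for Slc32a1.

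**Figure D1:**
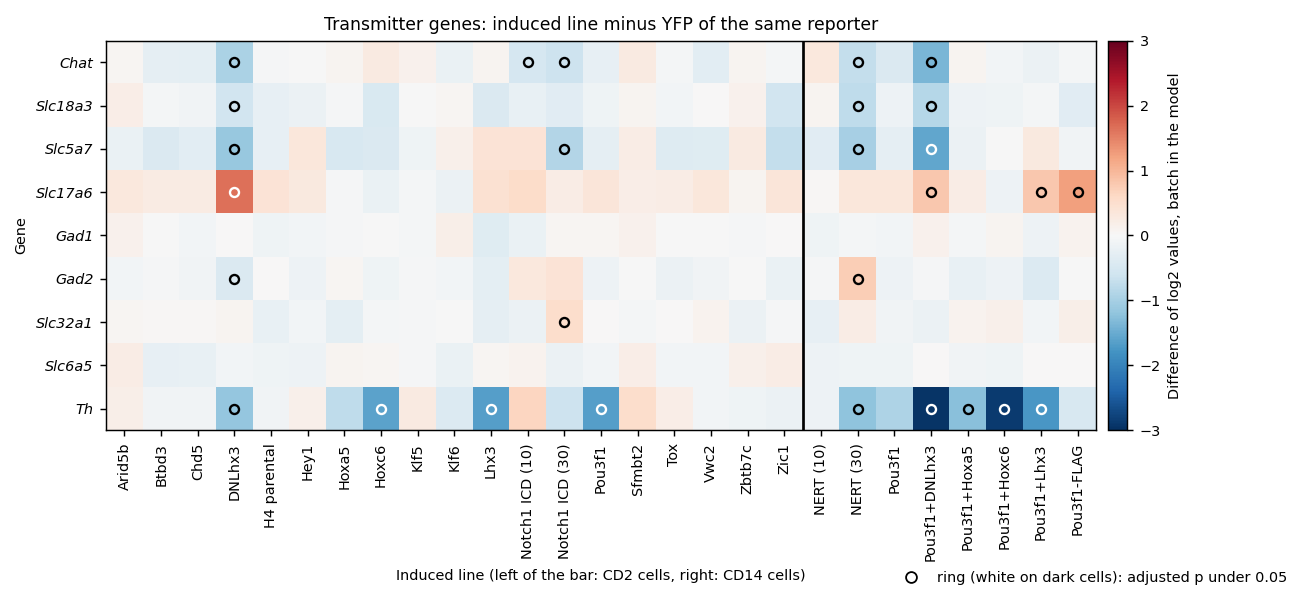
Fitted log2 difference between each line and the YFP cells of its reporter, for the 9 transmitter genes. Colour gives the difference, and rings mark the 28 differences past an adjusted p of 0.05, of which 9 lie in the Th row and 5 in the Chat row.

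The order of the group means was little resolved in CD2 cells. Over the 20 CD2 groups ordered from low to high, 1 of 19 steps between neighbours separated all arrays of both groups for Chat, Slc18a3, Slc5a7, Slc17a6, Gad1, Gad2 and Slc32a1, and 0 did for Th and Slc6a5. Chat and Slc18a3 were lowest in DNLhx3 cells, with means of 9.42 and 12.46, and Slc5a7 was lowest there at 10.05 and highest in Lhx3 cells at 11.68. Over the 10 CD14 groups, 6 of 9 steps were separated for Slc5a7, 4 for Chat and Slc17a6, 3 for Th and Slc32a1, 2 for Slc18a3 and Gad2, 1 for Gad1 and 0 for Slc6a5. These counts describe the order and are not set here against those of other genes. Th was highest in YFP CD14 cells, at a mean of 12.71, and lowest in Pou3f1+DNLhx3 cells, at 9.90.

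In 15 of the 27 lines none of the 9 genes passed the threshold, and few other genes did. The share of all genes called was 0% for Chd5, Hoxa5 and Sfmbt2, 0.00502% for H4 parental cells, 0.01% for Arid5b, 0.015% for Vwc2, 0.0251% for Zbtb7c, 0.0451% for Btbd3 and 0.0602% for Tox. It was 0.291% for Zic1, 0.306% for Pou3f1 CD14, 0.311% for Klf5, 0.361% for Hey1, 0.416% for NERT (10) and 0.471% for Klf6. At an unadjusted p below 0.05 limma called 1 of the 9 genes in Chd5, 1 in Hoxa5 and 0 in Sfmbt2, with 1022, 2071 and 1644 genes called that way in all. That count was 2 of the 9 genes in Btbd3, Zic1 and Pou3f1 CD14, with 1552, 2137 and 1440 genes called that way in all. It was 1 in NERT (10) and Vwc2, with 1687 and 1320 genes, and 0 in the other 7 lines, with 1508 to 2303 genes. The transmitter genes were thus called in the 12 lines in which 2.09% to 8.98% of genes were called.

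All 3 cholinergic genes fell in DNLhx3 cells. In DNLhx3 cells 6 of the 9 transmitter genes passed the threshold, where 4.09% of all genes did: the 3 cholinergic genes, Gad2 and Th fell and Slc17a6 rose. Chat read 9.54 and 9.29 in DNLhx3 cells, against 10.35, 10.10, 10.41 and 10.35 in YFP CD2 cells, so both DNLhx3 arrays lay below all YFP arrays. It fell by 0.94 ± 0.13 (SE; adjusted p = 5.01e-06), a 1.92-fold lower level, and by 0.96 ± 0.11 within batch 3, where both groups have 2 arrays. Slc18a3 read 12.53 and 12.40 in DNLhx3 cells and 13.03, 12.80, 13.03 and 13.17 in YFP CD2 cells, a difference of -0.58 ± 0.13 (adjusted p = 0.00573). Slc5a7 read 10.16 and 9.93 in DNLhx3 cells and 10.98, 10.97, 10.75 and 11.40 in YFP CD2 cells, a difference of -1.14 ± 0.21 (adjusted p = 3.41e-04) or 2.21-fold lower. For all 3 genes the groups did not overlap, but with 2 arrays against 4 this is a description and no test. The Slc18a3 call was lost without DNLhx3 replicate 2 (adjusted p = 0.13) or without YFP replicate 2 of batch 3 (0.0616), whereas those of Chat and Slc5a7 held without any 1 array.

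Pou3f1 combined with DNLhx3 gave the lowest Chat and Slc5a7 levels among the CD14 groups. With 4% of all genes called, 5 of the 9 transmitter genes passed the threshold: the 3 cholinergic genes and Th fell, and Slc17a6 rose. Chat read 8.61 and 8.61 in Pou3f1+DNLhx3 cells, against 9.96, 10.01, 10.06 and 10.09 in YFP CD14 cells, and fell by 1.38 ± 0.14 (adjusted p = 3.32e-09) or 2.60-fold. Slc18a3 read 12.23 and 12.35 in Pou3f1+DNLhx3 cells and 13.06, 13.24, 12.84 and 12.84 in YFP CD14 cells, with a difference of -0.86 ± 0.14 (adjusted p = 4.47e-05). Slc5a7 read 9.19 and 9.57 in Pou3f1+DNLhx3 cells and 10.94, 10.93, 11.46 and 11.26 in YFP CD14 cells, with a difference of -1.56 ± 0.22 (adjusted p = 4.14e-06), 2.95-fold lower. Each of the 3 genes lay below every YFP array in both arrays, which is a description and no test. Each call held without any 1 array.

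Cholinergic genes were also lower in Pou3f1+DNLhx3 cells than with Pou3f1 alone. In Pou3f1 CD14 cells Chat read 9.60 and 9.52, with a difference from YFP of -0.43 ± 0.14 that missed the threshold (adjusted p = 0.321). Pou3f1+DNLhx3 cells had 4 of 9 transmitter genes called, where 2.11% of genes were, against Pou3f1 CD14 cells, in which Slc18a3 read 13.04 and 12.96 and Slc5a7 10.69 and 10.64. Chat differed by -0.95 ± 0.14 (adjusted p = 1.61e-05), Slc18a3 by -0.71 ± 0.14 (0.00139) and Slc5a7 by -1.29 ± 0.22 (1.96e-04), and Th was the fourth. The Slc18a3 call ended without Pou3f1+DNLhx3 replicate 1 (0.0606).

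No cholinergic gene was called in cells given Lhx3 itself. In Lhx3 CD2 cells, where 3.81% of genes were called and Th was the 1 transmitter gene among them, Chat read 10.19 and 10.19, and its difference from YFP was 0.08 ± 0.20 with a 95% interval of -0.33 to 0.49 (adjusted p = 0.845). Slc5a7 read 11.61 and 11.74 in Lhx3 cells, above all 4 YFP CD2 arrays, with a difference of 0.42 ± 0.32 that did not pass (adjusted p = 0.442), and Slc18a3 read 12.74 and 13.19 with a difference of -0.43 ± 0.20 (0.197). Set directly against DNLhx3 cells, Lhx3 cells had 2 of 9 transmitter genes called where 3.77% of genes were: Chat was higher by 1.02 ± 0.22 (adjusted p = 0.00884) and Slc5a7 by 1.56 ± 0.35 (0.0112). These lines share no batch. The Chat call ended without DNLhx3 replicate 2 (0.065) or the batch 5 Lhx3 array (0.151), and the Slc5a7 call without the same 2 arrays (0.0617 and 0.0892) or either Hoxa5 CD2 array (0.0684); without the 6 batch 4 arrays Chat differed by 0.70 (0.0731).

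The same pair of factors on top of Pou3f1 gave the same order. Pou3f1+Lhx3 cells, with Chat at 10.02 and 9.80, Slc18a3 at 12.78 and 12.80 and Slc5a7 at 11.66 and 11.66, were set against Pou3f1+DNLhx3 cells. With 1.23% of genes called, 3 of the 9 transmitter genes passed. Chat was higher by 1.21 ± 0.20 (adjusted p = 1.74e-04), Slc5a7 by 1.86 ± 0.31 (2.61e-04) and Slc18a3 by 0.81 ± 0.20 (0.0241). These lines lie in batches 7 and 6, which the YFP and other arrays link. The Slc18a3 call was lost without any of 6 arrays, at 0.0758 to 0.189: Pou3f1+DNLhx3 replicate 1, YFP replicate 2 of batch 6, and both YFP and both Pou3f1+Lhx3 arrays of batch 7. With the replicate number as a block, the Chat and Slc5a7 differences were 1.27 (0.0645) and 1.80 (0.136). Against Pou3f1 CD14 alone, Pou3f1+Lhx3 cells had 0 of 9 transmitter genes called by limma, where 0.502% of genes were called. At an unadjusted p below 0.05 limma called 1 of the 9, with 939 genes called that way in all.

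**Figure D2:**
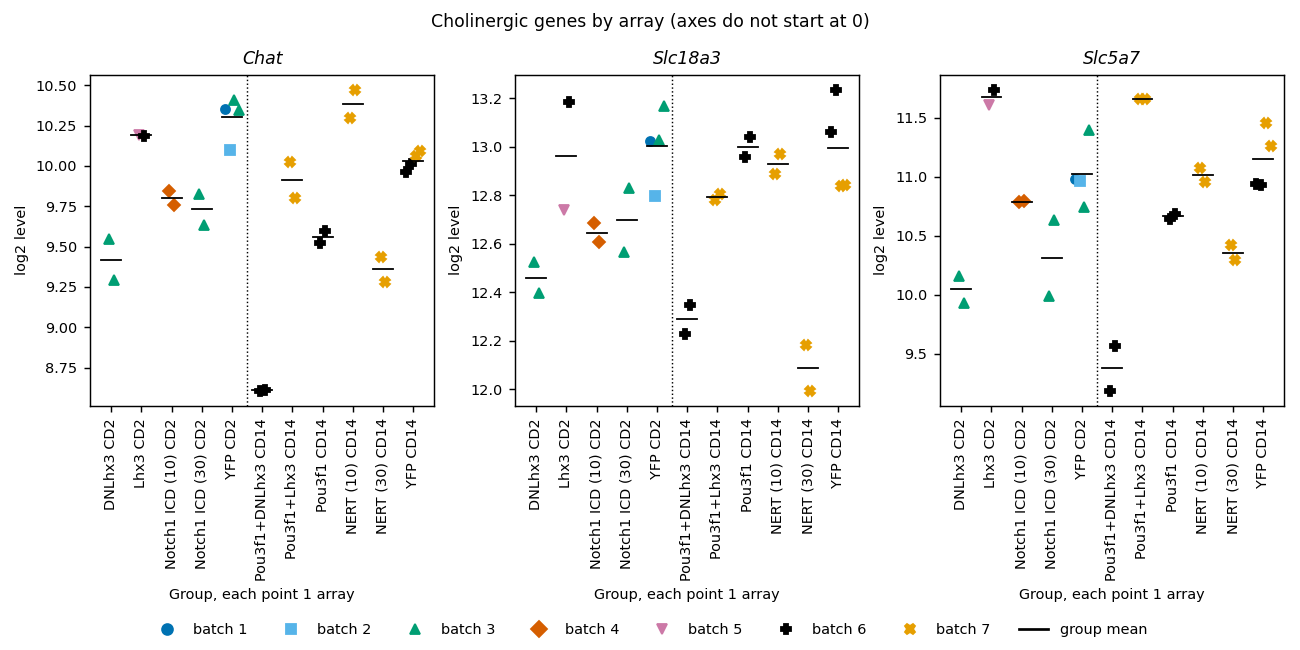
Deposited log2 intensity of Chat, Slc18a3 and Slc5a7 by array, in the groups shown only, with YFP last in each reporter. Each point is 1 array, its symbol the batch, and lines are group means. The DNLhx3 points at 9.29 and 9.54 and the Pou3f1+DNLhx3 points at 8.61 lie below all YFP points in the Chat panel.

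Cholinergic genes also fell in cells given Notch1 ICD. In Notch1 ICD (30) cells, where 6.07% of genes were called, Chat and Slc5a7 fell and Slc32a1 rose. Chat read 9.83 and 9.64 in these cells, below all 4 YFP CD2 arrays, and differed by -0.63 ± 0.13 (adjusted p = 0.00119), 1.55-fold lower. Slc5a7 read 9.99 and 10.63 and differed by -0.88 ± 0.21 (0.00464), 1.84-fold lower. Slc18a3 read 12.57 and 12.83, inside the YFP range for the higher array, and its difference of -0.34 ± 0.13 did not pass (0.141). Without Notch1 ICD (30) replicate 2 the Chat call was lost (0.062), and without replicate 1 Slc5a7 differed by -0.56 (0.274); with no batch terms Slc5a7 differed by -0.71 (0.148).

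In Notch1 ICD (10) cells Chat was the 1 transmitter gene called, where 2.96% of genes were. It read 9.85 and 9.76 and differed by -0.51 ± 0.15 (adjusted p = 0.0482). This call was the least secure of the 28: it was lost without any of 49 arrays, at up to 0.343 without Notch1 ICD (10) replicate 2, and the difference was -0.12 (0.893) without the 6 batch 4 arrays. Within batch 4, which holds no YFP array, both arrays lay below the other 7, which read 10.02 to 10.52. Slc5a7 read 10.78 and 10.79 in these cells, with a fitted difference of 0.41 ± 0.23 (0.385), although their mean of 10.79 was below the YFP CD2 mean of 11.02, so the sign of the fitted value comes with the batch terms. Slc18a3 read 12.69 and 12.61, with -0.21 ± 0.15 (0.481).

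Between the induction labels, Notch1 ICD (30) and Notch1 ICD (10) cells differed in 3 of the 9 genes where 6.41% of genes were called. Slc5a7 was lower in Notch1 ICD (30) cells, by -1.28 ± 0.27 (adjusted p = 0.00196), Th was lower by -1.26 ± 0.35 (0.021) and Slc32a1 was higher by 0.71 ± 0.17 (0.00603). All 3 differences cross batches 3 and 4 and rest on the 6 batch 4 arrays: without those, they were -0.97 (0.267), -0.85 (0.491) and 0.38 (0.528). Single arrays also ended these calls. Slc5a7 lost its call without Notch1 ICD (30) replicate 1 (0.0705), Slc32a1 without Notch1 ICD (30) replicate 2 (0.0573) or Notch1 ICD (10) replicate 2 (0.119), and Th without Notch1 ICD (30) replicate 1, either Notch1 ICD (10) array or either Arid5b array (0.0529 to 0.178).

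The NERT comparison lies within batch 7, with 2 arrays in each group. In NERT (30) cells 5 of the 9 genes passed the threshold against YFP CD14, where 4.7% of genes did: the 3 cholinergic genes and Th fell and Gad2 rose. Chat read 9.44 and 9.28 in NERT (30) cells and differed by -0.72 ± 0.14 (adjusted p = 7.21e-04). Slc18a3 read 12.18 and 12.00, with a difference of -0.75 ± 0.14 (3.85e-04), and its NERT (30) mean was the lowest of the 10 CD14 groups. Slc5a7 read 10.42 and 10.29, with a difference of -1.0 ± 0.22 (0.00324) that was no longer called without YFP replicate 1 of batch 7 (0.0799), without NERT (30) replicate 2 (0.0722) or with no batch terms (0.0564). Chat and Slc18a3 kept their calls without any 1 array.

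No cholinergic gene was called in NERT (10) cells. Chat read 10.30 and 10.47 there, above all 4 YFP CD14 arrays, Slc18a3 read 12.89 and 12.97, and Slc5a7 11.08 and 10.96, with differences from YFP of 0.31 ± 0.14, 0.09 ± 0.14 and -0.34 ± 0.22, none past the threshold (adjusted p = 0.55, 0.888 and 0.695). Chat was the 1 of the 9 genes at an unadjusted p below 0.05 in this comparison, where 1687 of all genes were. NERT (30) against NERT (10) cells gave 5 of 9 genes called where 3.78% of genes were. Chat was lower in NERT (30) cells by -1.03 ± 0.14 (3.08e-06) and Slc18a3 by -0.84 ± 0.14 (9.25e-05), while Slc5a7 missed the threshold at -0.66 ± 0.22 (0.0991). Gad2, Slc32a1 and Th were the other 3.

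Pou3f1 with Hoxa5 was the remaining combination with a cholinergic call. Against Pou3f1 CD14 cells, where 3.45% of genes were called, Chat was higher by 0.51 ± 0.14 (adjusted p = 0.0329), with 10.03 and 10.11 in Pou3f1+Hoxa5 cells and 9.60 and 9.52 in Pou3f1 CD14 cells. The call was lost without any of these 4 arrays (0.123 to 0.264), and the YFP CD14 range was 9.96 to 10.09. The Pou3f1 effect, each time relative to the matching YFP, set for CD14 against CD2 cells gave 0.01% of genes called and 0 of the 9 transmitter genes with limma, also at an unadjusted p below 0.05. At that unadjusted p 1190 genes were called in all.

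Markers moved with the cholinergic genes in these lines. Of 12 motor neuron markers, 5 fell and 2 rose in DNLhx3 cells, 8 fell in Pou3f1+DNLhx3 cells, 8 fell in NERT (30) cells and 7 fell and 1 rose in Notch1 ICD (30) cells, with 0 called in NERT (10) and in Notch1 ICD (10) cells, whose shares over all genes stand above. In lines with no cholinergic call, 3 fell and 2 rose in Pou3f1+Hoxc6 cells, 2 fell and 1 rose in Lhx3 cells, 1 fell and 2 rose in Pou3f1+Hoxa5 cells, 1 fell and 1 rose in Hoxc6 cells, and 1 rose in each of Pou3f1 CD2 and Pou3f1+Lhx3 cells. All genes were called at 8.98%, 3.81%, 5.92%, 2.35%, 2.09% and 3.94% in these 6 lines. The list's mean level was 11.85 to 11.96 in DNLhx3 cells and 11.60 to 11.81 in Notch1 ICD (30) cells, against 12.03 to 12.23 in YFP CD2 cells. It was 11.59 to 11.65 in Pou3f1+DNLhx3 cells and 11.68 to 11.76 in NERT (30) cells, against 12.24 to 12.35 in YFP CD14 cells. Ret, a receptor of motor neuron trophic factors, fell by 2.41 ± 0.16 in Pou3f1+DNLhx3 cells (adjusted p = 1.15e-13) and by 1.03 ± 0.16 in NERT (30) cells (1.83e-05). It fell too in Pou3f1+Hoxa5 cells, by 1.31 ± 0.16 (1.31e-06), and in Pou3f1+Hoxc6 cells, by 1.09 ± 0.16 (6.91e-06), where no cholinergic gene was called against YFP. The part of these markers in the cholinergic changes was not tested.

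Regulators linked to acetylcholine were counted beside them. Of 12 such genes, 1 rose and 1 fell in DNLhx3 cells, 2 fell in Pou3f1+DNLhx3 cells, 4 fell in NERT (30) cells, 3 fell in Notch1 ICD (30) cells and 1 fell in Notch1 ICD (10) cells, where 4.09%, 4%, 4.7%, 6.07% and 2.96% of all genes were called. Isl1 was among those that fell in 4 of these lines: it differed by -0.79 ± 0.14 in DNLhx3 cells, -1.03 ± 0.15 in Pou3f1+DNLhx3 cells, -0.72 ± 0.15 in NERT (30) cells and -0.91 ± 0.14 in Notch1 ICD (30) cells (adjusted p = 1.64e-04, 4.42e-06, 0.00123 and 6.91e-06). The lowest Isl1 value in these 4 lines was 11.45. Ache, which breaks down acetylcholine, differed by -1.01 ± 0.17 in DNLhx3 cells (8.48e-05), -0.70 ± 0.18 in Pou3f1+DNLhx3 cells (0.0144) and -0.92 ± 0.17 in Notch1 ICD (30) cells (1.79e-04), but by 1.04 ± 0.19 in Notch1 ICD (10) cells (5.88e-04). Ache also fell where no cholinergic gene was called, by 1.27 ± 0.24 in Hoxc6 cells (0.00197) and by 0.88 ± 0.26 in Lhx3 cells (0.0467).

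Slc17a6 moved opposite to Chat in DNLhx3 cells. It read 8.38 and 7.94 in DNLhx3 cells, against 6.32, 5.99, 6.73 and 6.59 in YFP CD2 cells, and rose by 1.64 ± 0.22 (adjusted p = 3.69e-06) or 3.13-fold, a call that held without any 1 array. Its DNLhx3 mean was the highest of the 20 CD2 groups and lay above all arrays of the next group. In Pou3f1+DNLhx3 cells it read 7.92 and 7.05, against 6.94, 6.40, 7.14 and 7.03 in YFP CD14 cells, so that the lower array lay within the YFP range. There it differed by 0.81 ± 0.24 (0.0451), a call lost without any of 23 arrays, with 0.38 (0.826) without replicate 1 and 1.25 without replicate 2.

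Slc17a6 was not called in cells given Lhx3 alone. Lhx3 CD2 cells read 7.03 and 7.32, above all 4 YFP CD2 arrays, with a difference of 0.46 ± 0.35 that did not pass (adjusted p = 0.433), and Lhx3 cells against DNLhx3 cells differed by -1.18 ± 0.38 (0.0688). Pou3f1+Lhx3 cells, in which 3.94% of genes and 2 of the 9 were called, read 8.36 and 7.43, both above the YFP CD14 arrays. The difference was 0.81 ± 0.24 (0.0482), a call lost without any of 37 arrays, and it was 0.35 (0.879) without replicate 3 and 1.27 without replicate 4. In both combinations the value thus turned on 1 array.

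Pou3f1-FLAG cells had the highest CD14 mean of Slc17a6. They read 7.74 and 8.08, and Slc17a6 rose by 1.24 ± 0.24 (adjusted p = 0.00296), 2.37-fold, as the 1 transmitter gene called where 2.44% of genes were. The call ended without YFP replicate 2 of batch 6 (0.115) or Pou3f1-FLAG replicate 2 (0.0873). Pou3f1 CD14 cells, which like Pou3f1-FLAG cells showed no called rise of Pou3f1, read 6.97 and 7.04. Pou3f1-FLAG against Pou3f1 CD14 gave 1 of 9 called where 2.21% of genes were, Slc17a6 at 0.91 ± 0.24 (0.0359), lost without any of the 4 arrays (0.0808 to 0.281). In Pou3f1 CD2 cells Slc17a6 read 6.44 to 6.62, within the YFP CD2 range.

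Of 20 regulators linked to glutamate, 1 fell in DNLhx3 cells, 3 rose and 1 fell in Pou3f1+DNLhx3 cells, 1 rose in Pou3f1+Lhx3 cells and 1 rose in Pou3f1-FLAG cells. The shares of all genes called in these lines were 4.09%, 4%, 3.94% and 2.44%, so 1 of 20 is near the background. In lines with no Slc17a6 call, 2 fell in Notch1 ICD (10) cells, 1 rose and 1 fell in Lhx3 cells, 1 fell in each of Hoxc6, NERT (30) and Notch1 ICD (30) cells, and 1 rose in each of Pou3f1 CD14 and Pou3f1+Hoxc6 cells. All genes were called at 2.96%, 3.81%, 2.35%, 4.7%, 6.07%, 0.306% and 8.98% in these lines, in that order. Shox2, a homeodomain factor of excitatory spinal interneurons, was the riser in Pou3f1+Lhx3 and Pou3f1-FLAG cells, at 1.72 ± 0.20 (adjusted p = 1.45e-07) and 0.77 ± 0.20 (0.0313). In Pou3f1+DNLhx3 cells Shox2 rose by 1.46 ± 0.20 (2.18e-06). It also rose by 1.32 ± 0.20 in Pou3f1 CD14 cells (1.77e-04), in which Slc17a6 was not called. Slc1a2, a glial glutamate transporter, rose by 0.82 ± 0.12 in DNLhx3 cells (1.71e-05) and by 1.68 ± 0.13 in Pou3f1+DNLhx3 cells (5.94e-12). It rose as well in Pou3f1-FLAG and Pou3f1+Lhx3 cells, by 0.47 and 0.54, and in lines with no Slc17a6 call: by 1.00 ± 0.12 in Notch1 ICD (30) cells (1.07e-07), and by 0.76, 0.62, 0.49, 0.53 and 0.57 in Hoxc6, NERT (30), Pou3f1 CD2, Pou3f1+Hoxa5 and Pou3f1+Hoxc6 cells. In Notch1 ICD (10) cells it differed by -0.58 (0.0106).

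**Figure D3:**
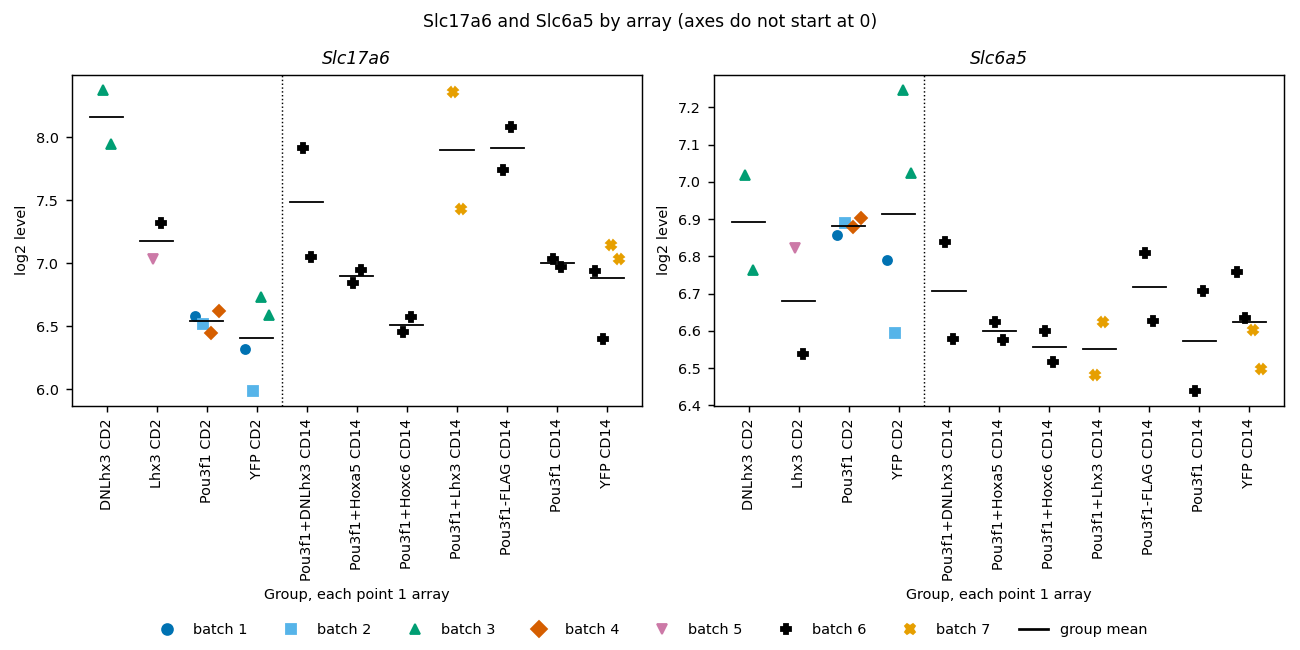
Deposited log2 intensity of Slc17a6 and Slc6a5 by array, in chosen groups only, with YFP last in each reporter. The CD2 groups are DNLhx3, Lhx3, Pou3f1 and YFP. The CD14 groups are Pou3f1 with DNLhx3, Hoxa5, Hoxc6 or Lhx3, Pou3f1-FLAG, Pou3f1 and YFP. Each point is 1 array, its symbol the batch, and lines are group means. Both DNLhx3 points of Slc17a6, 7.94 and 8.38, lie above all other CD2 points, while no Slc6a5 group stands apart.

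The GABA genes changed in few lines. Gad2, one of the enzymes that make GABA from glutamate, read 7.33 and 7.46 in NERT (30) cells, against 6.41, 6.43, 6.70 and 6.62 in YFP CD14 cells. It rose by 0.73 ± 0.14 (adjusted p = 3.49e-04) or 1.66-fold, and both arrays lay above all other CD14 arrays. NERT (10) cells read 6.60 and 6.63, within the YFP range, and NERT (30) cells were higher than these by 0.78 ± 0.14 (1.87e-04). Both calls held without any 1 array. In Notch1 ICD (30) cells Gad2 read 6.73 and 7.13, and its difference of 0.40 ± 0.13 missed the threshold at 0.0504; within batch 3 it was 0.41 (0.0348).

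In DNLhx3 cells Gad2 went the other way. It read 5.92 and 6.26, against 6.75, 6.47, 6.51 and 6.52 in YFP CD2 cells, and differed by -0.43 ± 0.13 (adjusted p = 0.0418). The call was lost without any of 6 arrays: DNLhx3 replicate 1 (-0.27, 0.39), YFP replicate 1 of batch 1, YFP replicate 2 of batch 3, Pou3f1 CD2 of batch 1 and either Klf6 array (0.0547 to 0.118 for the last 5). In Pou3f1+DNLhx3 cells Gad2 read 6.49 and 6.28, around the YFP CD14 arrays.

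Slc32a1, the vesicular transporter shared by GABA and glycine neurons, rose in Notch1 ICD (30) cells. It read 7.65 and 7.85 there, against 7.31, 7.35, 7.39 and 7.07 in YFP CD2 cells, with a difference of 0.53 ± 0.13 (adjusted p = 0.00594), 1.44-fold higher. Notch1 ICD (10) cells read 7.49 and 7.16. The call ended without Notch1 ICD (30) replicate 2 (0.161) or YFP replicate 2 of batch 3 (0.0573). In NERT (30) cells Slc32a1 read 7.37 and 7.30, above the YFP CD14 arrays of 7.21, 7.28, 7.14 and 7.09, with a difference of 0.22 ± 0.14 that did not pass (0.393). It was higher than in NERT (10) cells, which read 6.98 and 6.73, by 0.48 ± 0.14 (0.0364), a call lost without any of these 4 arrays (0.0505 to 0.529).

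**Figure D4:**
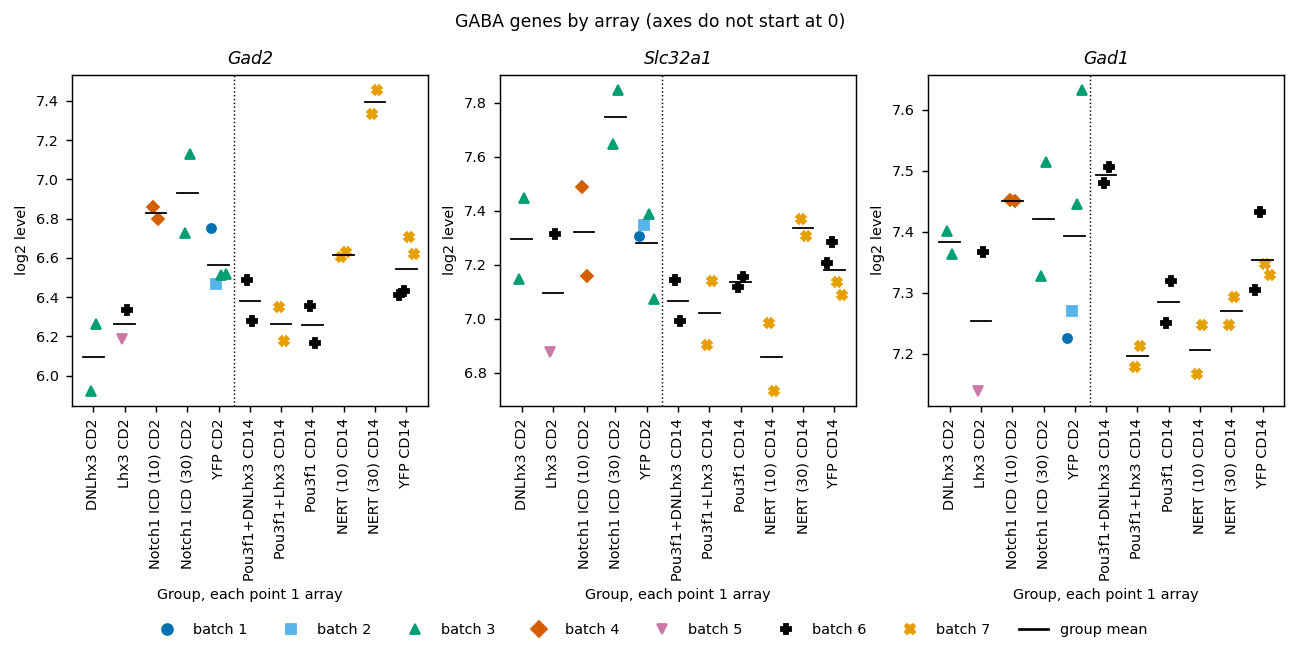
Deposited log2 intensity of Gad1, Gad2 and Slc32a1 by array, in the groups shown only, with YFP last in each reporter. Each point is 1 array, its symbol the batch, and lines are group means. The NERT (30) points of Gad2 at 7.33 and 7.46 and the Notch1 ICD (30) points of Slc32a1 at 7.65 and 7.85 lie above the YFP points of their reporter.

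Gad1, the other GABA-synthesising enzyme, changed in 0 of 27 lines and 0 of 11 comparisons between lines by limma, with 0 lines at an unadjusted p below 0.05. Its 27 differences ran from -0.36 to 0.19. The smallest adjusted p, 0.286, belonged to Lhx3 CD2 cells, at -0.36 ± 0.20 with a 95% interval of -0.77 to 0.05. Slc6a5, the glycine transporter of glycinergic terminals, likewise changed in 0 of 27 and 0 of 11, with 0 lines at an unadjusted p below 0.05, a range of -0.24 to 0.22 and a smallest adjusted p of 0.732. The deposited values carry no measure of background, so whether the levels of Gad1, Slc6a5, Gad2 and Slc17a6 lie above it was not tested. The mean of Gad2 lay at percentile 21.2 of all genes, so the filter on dim genes left Gad2 out, and that of Slc17a6 lay at 26.7.

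Regulators of inhibitory fates were counted beside Gad2 and Slc32a1. Of 22 regulators linked to GABA and glycine, 2 rose in NERT (30) cells, 3 in Notch1 ICD (30) cells, 1 in Notch1 ICD (10) cells, 4 in DNLhx3 cells and 3 in Pou3f1+DNLhx3 cells, with 0 called in NERT (10) cells. All genes were called at 4.7%, 6.07%, 2.96%, 4.09%, 4% and 0.416% in these lines. In lines with neither Gad2 nor Slc32a1 called, 2 rose in Pou3f1 CD2 cells, 1 rose and 1 fell in Lhx3 cells, and 1 rose in each of Klf5, Pou3f1 CD14, Pou3f1+Hoxa5, Pou3f1+Hoxc6 and Pou3f1+Lhx3 cells. The shares of all genes called there were 2.09%, 3.81%, 0.311%, 0.306%, 5.92%, 8.98% and 3.94%, in that order. Tal1, a helix-loop-helix factor of an inhibitory spinal interneuron class, read 10.75 to 11.01 in NERT (30) cells and 8.10 to 8.40 in YFP CD14 cells, and rose by 2.74 ± 0.12 (adjusted p = 3.08e-19). It read 10.89 to 11.18 in Notch1 ICD (30) cells and 8.05 to 8.27 in YFP CD2 cells, a rise of 2.89 ± 0.12 (3.25e-21). Gata3, a partner of Tal1 in that class, rose by 1.75 ± 0.18 (3.48e-09) and 2.47 ± 0.17 (3.39e-14) in these 2 lines. In DNLhx3 cells Lhx1, a LIM-homeodomain factor of several interneuron classes, rose by 4.10 ± 0.36 (1.87e-10), and in Pou3f1+DNLhx3 cells by 3.59 ± 0.38 (1.05e-08).

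Progenitor markers moved in the Notch lines as well. Of 15 progenitor markers, 3 rose in NERT (30) cells, 1 in NERT (10) cells, and 2 rose and 1 fell in each Notch1 ICD group. All genes were called at 4.7% in NERT (30), 0.416% in NERT (10), 6.07% in Notch1 ICD (30) and 2.96% in Notch1 ICD (10) cells. Hes5, a transcriptional target of Notch in neural progenitors, rose by 2.68 ± 0.19 in NERT (30) cells (adjusted p = 8.75e-14), 1.74 ± 0.19 in NERT (10) cells (8.95e-08), 2.18 ± 0.17 in Notch1 ICD (30) cells (2.42e-12) and 1.23 ± 0.19 in Notch1 ICD (10) cells (8.64e-05). Hes5 was thus raised in NERT (10) cells, in which 0.416% of genes and 0 of the 9 transmitter genes were called. The mean of the progenitor list was 10.81 to 10.82 in NERT (30) cells, against 9.79 to 10.34 in YFP CD14 cells. That of 13 ventral interneuron markers was 7.79 to 7.82, against 7.40 to 7.54. This second list includes Tal1 and Gata3, whose rises stand above, so its mean is no separate observation from theirs. The part of both lists in the changes of Gad2, Slc32a1 and Chat was not tested.

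Th varied most of the 9 genes. The SD of its 27 differences was 0.95, against 0.12 to 0.49 for the other 8 genes. All 9 of the Th changes were decreases.

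Pou3f1 CD2 cells, with 4 arrays over 3 batches, gave the best replicated of these. Th read 10.61, 11.81, 10.87 and 10.97 in Pou3f1 CD2 cells, against 12.60, 13.07, 13.28 and 12.88 in YFP CD2 cells, so every Pou3f1 array lay below every YFP array. It fell by 1.64 ± 0.22 (adjusted p = 9.84e-06) or 3.13-fold, as the 1 transmitter gene called where 2.09% of genes were. Within batch 1 the difference was -1.99 and within batch 2 it was -1.27, each 1 array against 1, and against the 1 H4 parental array of batch 4 it was -1.52. In Pou3f1 CD14 cells Th read 12.02 and 11.81, below the YFP CD14 arrays of 13.03, 12.64, 12.73 and 12.46, with a difference of -0.92 ± 0.28 (0.255). The difference between these Pou3f1 effects, CD14 minus CD2, was 0.73 ± 0.36 and did not pass (0.817); induced Pou3f1 was not called in the CD14 line. Pou3f1-FLAG cells read 12.78 and 11.94, with -0.47 ± 0.28 (0.46).

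The lowest Th levels of the series were in Pou3f1+DNLhx3 and Pou3f1+Hoxc6 cells. Pou3f1+DNLhx3 cells read 9.69 and 10.10 and Th differed by -2.94 ± 0.28 (adjusted p = 8.4e-10), 7.65-fold lower than YFP CD14. Pou3f1+Hoxc6 cells, where Th was the 1 transmitter gene called among 8.98% of genes, read 10.02 and 9.89, with a difference of -2.88 ± 0.28 (1.96e-09), 7.37-fold lower. Both calls held without any 1 array. Pou3f1+Lhx3 cells read 10.74 and 10.95, with a difference of -1.75 ± 0.28 (4.65e-05), which was -0.93 (1) with the replicate number as a block. Pou3f1+Hoxa5 cells, where 5.92% of genes were called, read 12.04 and 11.10, with -1.27 ± 0.28 (0.00435). That call ended without replicate 3 (-0.79, 0.252), without YFP replicate 1 of batch 6 (0.122) and with the replicate block (-0.80, 0.228).

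Set against Pou3f1 CD14 cells in the same batch, Th was lower by -2.02 ± 0.28 in Pou3f1+DNLhx3 cells (adjusted p = 5.33e-06) and by -1.96 ± 0.28 in Pou3f1+Hoxc6 cells (8.49e-06). In the Pou3f1+Hoxc6 comparison 8.97% of genes were called and Th was the 1 transmitter gene among them. Pou3f1+Hoxc6 cells were also lower than Pou3f1+Hoxa5 cells, by -1.62 ± 0.28 (4.98e-04), where 0.973% of genes were called, although not without Pou3f1+Hoxa5 replicate 2 (0.169). Pou3f1+Lhx3 against Pou3f1 CD14, across batches, differed by -0.83 ± 0.40 (adjusted p = 1).

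**Figure D5:**
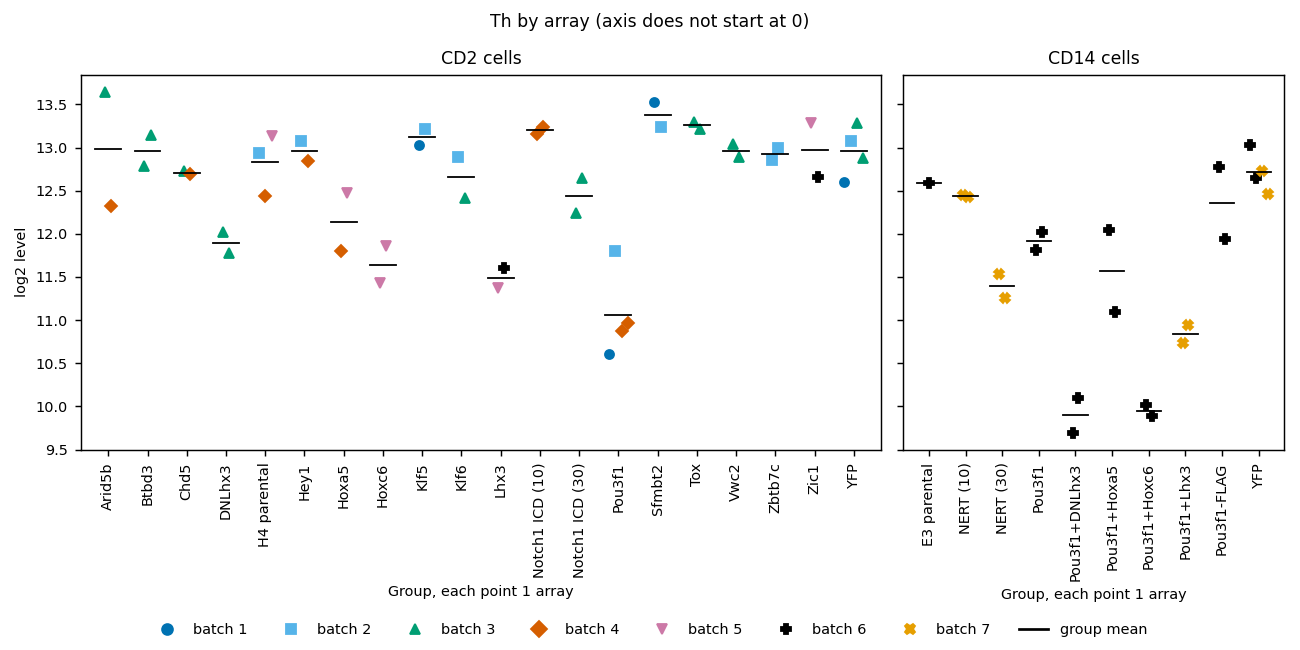
Deposited log2 intensity of Th in every array of batches 1 to 7, by line, with YFP last in each reporter; each point is 1 array, its symbol the batch, and lines are group means. The Pou3f1+DNLhx3 and Pou3f1+Hoxc6 points, from 9.69 to 10.10, lie below all other points, and the 4 Pou3f1 CD2 points reach from 10.61 to 11.81.

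Single factors without Pou3f1 lowered Th as well. In Hoxc6 cells, where 2.35% of genes were called and Th was the 1 transmitter gene, Th read 11.86 and 11.43, below every YFP CD2 array. The difference was -1.60 ± 0.38 (adjusted p = 0.0152). Against the 1 H4 parental array of batch 5, the batch that holds both Hoxc6 arrays, it was -1.50, a value chosen after the data were seen and with no replicate of H4 parental cells behind it. The YFP call was lost without Hoxc6 replicate 1, the batch 5 H4 parental array or either Hoxa5 array (0.0631 to 0.0943), and without the 6 batch 4 arrays (0.0601). Lhx3 cells read 11.38 and 11.61, with a difference of -1.65 ± 0.41 (0.0195). That call was lost without the batch 5 Lhx3 array (-1.01, 0.779), the batch 2 or batch 5 H4 parental array or either Hoxa5 array (0.0528 to 0.0684 for these 4). Within batch 5 the Lhx3 array differed by -1.76 from the H4 parental array and by -1.90 from the Zic1 array, and within batch 6 by -1.05 from the Zic1 array, each 1 array against 1 and so values with no replicate check. Hoxa5 cells read 11.81 and 12.47, with -0.76 (0.419).

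DNLhx3 and NERT (30) cells also had less Th. DNLhx3 cells read 12.02 and 11.77, with a difference of -1.16 ± 0.26 (adjusted p = 0.00541), lost without replicate 2 (0.123). NERT (30) cells read 11.53 and 11.26, with -1.20 ± 0.28 (0.00635), lost without replicate 2 (0.14) or YFP replicate 1 of batch 7 (0.128). NERT (10) cells read 12.45 and 12.43, and NERT (30) cells were lower than these by -1.05 ± 0.28 (0.0247), lost without any of the 4 arrays (0.0703 to 0.321). Notch1 ICD (30) cells read 12.24 and 12.64, with -0.61 ± 0.26 (0.201), and Notch1 ICD (10) cells 13.16 and 13.24, with 0.65 ± 0.30 (0.262).

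Other catecholamine genes did not follow Th in each line. Ddc, which makes dopamine, fell in Pou3f1 CD2 cells, by 1.06 ± 0.19 (adjusted p = 6.24e-04), and was not called in Pou3f1+DNLhx3 cells at -0.49 ± 0.24 (0.417) or Pou3f1+Hoxc6 cells at -0.43 ± 0.24 (0.293). It fell by 1.29 ± 0.22 in Notch1 ICD (30) cells (7.22e-05) and by 1.20 ± 0.25 in Notch1 ICD (10) cells (0.00311), in which Th was not called. Slc18a2, the vesicular monoamine transporter, fell in 4 of the 9 lines with lower Th, by 0.91 ± 0.19 in DNLhx3, 1.04 ± 0.30 in Lhx3, 1.29 ± 0.21 in Pou3f1+DNLhx3 and 1.45 ± 0.21 in Pou3f1+Lhx3 cells (0.00247, 0.0414, 3.43e-05 and 7.27e-06). It fell too in Notch1 ICD (10) cells, by 1.09 ± 0.22 (0.00192), in which Th was not called. Dbh, which turns dopamine into noradrenaline, was called in 1 of the 9 lines with lower Th, Pou3f1+Lhx3, at -0.54 (0.0465).

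Of 17 regulators linked to catecholamines, 4 fell in Pou3f1+Hoxc6 cells, 2 in Pou3f1+DNLhx3 cells, 1 in Pou3f1+Hoxa5 cells and 1 in Pou3f1+Lhx3 cells, and 1 rose in Pou3f1 CD2 cells, where 8.98%, 4%, 5.92%, 3.94% and 2.09% of all genes were called. Ebf2, a helix-loop-helix factor of differentiating neurons, differed by -3.06 ± 0.41 in Pou3f1+Hoxc6 cells (adjusted p = 1.57e-06), -2.57 ± 0.41 in Pou3f1+DNLhx3 cells (3.36e-05) and -2.79 ± 0.41 in Pou3f1+Hoxa5 cells (3.02e-05). It also differed by -1.66 ± 0.41 in Pou3f1-FLAG cells (0.0225) and by -1.43 ± 0.39 in Notch1 ICD (30) cells (0.0167), in which Th was not called. Of the same list, Foxa2 and Ebf1 fell in Notch1 ICD (30) cells too, at -1.20 and -0.81, and Gata3 rose by 2.47. In NERT (30) cells 1 rose and 5 fell, led by Foxa1 at -1.91, in DNLhx3 cells 2 rose, and in Lhx3 and Hoxc6 cells 2 and 1 fell, with Hand1 at -0.95 and Pitx3 at -0.77 in Lhx3 cells. All genes were called at 4.7% in NERT (30), 4.09% in DNLhx3, 3.81% in Lhx3 and 2.35% in Hoxc6 cells. Among 6 markers of visceral and catecholamine neurons, Tbx20, a T-box factor of visceral motor neurons, fell in Pou3f1 CD2, Pou3f1+Hoxa5, Pou3f1+DNLhx3, Pou3f1+Hoxc6 and Pou3f1+Lhx3 cells, with differences of -1.40, -1.28, -1.89, -1.90 and -2.07. Tbx2, also on that list, went the other way. It rose by 1.08 ± 0.25 in Lhx3 cells (0.0143), where Th fell, and by 1.38 ± 0.16 in Notch1 ICD (30) cells (5.54e-08), where Th was not called. That list's mean was 7.23 to 7.40 in Pou3f1+DNLhx3 cells and 7.36 to 7.46 in Pou3f1+Hoxc6 cells, against 7.77 to 8.42 in YFP CD14 cells. Its part in the level of Th was not tested.

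The 42 other transmitter genes, which include degradation enzymes, plasma membrane transporters and further vesicle proteins, were called in both directions. There were 3 higher and 4 lower in DNLhx3 cells, 4 and 3 in Pou3f1+DNLhx3 cells, 2 and 4 in Notch1 ICD (30) cells, 5 and 3 in Notch1 ICD (10) cells, 3 and 0 in NERT (30) cells and 0 in NERT (10) cells. All genes were called at 4.09%, 4%, 6.07%, 2.96%, 4.7% and 0.416% in these lines. Sv2c, a synaptic vesicle protein, fell in several of these lines, with differences of -1.55 ± 0.30 in DNLhx3 cells (adjusted p = 6.98e-04), -2.06 ± 0.32 in Pou3f1+DNLhx3 cells (1.82e-05) and -2.39 ± 0.32 in Pou3f1+Hoxc6 cells (1.18e-06), and rose by 1.67 ± 0.33 in Notch1 ICD (10) cells (0.00208).

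Across the means of 30 groups, with batch terms removed, the cholinergic genes correlated positively, though not more than some other pairs. Pearson's r was 0.59 between Chat and Slc18a3, 0.69 between Chat and Slc5a7 and 0.66 between Slc18a3 and Slc5a7. Chat and Slc17a6 gave -0.45, Slc18a3 and Th 0.68, Slc18a3 and Gad1, which changed in no line, 0.66, Gad1 and Slc32a1 0.67, and Gad1 and Gad2 0.25. The groups share arrays through the batch terms and are not independent, and these values only describe them. By the same measure the genes most like Chat were Slit2 (0.854), Elavl2 (0.813) and Nyap2 (0.791). Those most like Slc5a7 were Dlc1 (0.876), Mfap3l (0.860) and Pcdh9 (0.804), and those most like Th were Shisa6 (0.900), Ubash3b (0.895) and Itga7 (0.887). For Slc17a6 they were Septin6 (0.714), Dlx1 (0.686) and Lamp5 (0.685), and for Slc32a1 Lhx5 (0.867), Tbxa2r (0.856) and Oprd1 (0.853).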

How the data were processed

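The authors deposited log2 intensities of transcript clusters, and the submitters' processing notes name RMA and oligo as tools, with no version. RMA corrects background, quantile-normalises and summarises probes, so the values are relative across arrays, and levels of different genes cannot be compared. The median of an array lay between 7.57 and 7.84, except in batch 0 (7.08 and 7.09). Replicates of a group correlated at 0.974 to 0.998 across genes.

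Of 35556 transcript clusters, 21789 had 1 gene symbol in the platform annotation, 1621 several and 12146 none. The cluster with the highest mean stood for a symbol, which left 19938 genes. limma 3.58.1 in R 4.3.3 (lmFit, eBayes) was fitted to all 68 arrays with a term per group and per batch (31 residual degrees of freedom), two-sided, with Benjamini-Hochberg adjustment over all genes of each of 38 comparisons. The script was tested on simulated data. All 9 transmitter genes are described throughout. Of the other lists (42 further transmitter genes, regulators linked to acetylcholine, glutamate, GABA and glycine or catecholamines, and cell type markers), those named are the called genes with the greatest differences, up to 3 for a list in a comparison, and likeness was taken from the 3 highest Pearson correlations over group means. Members and lists were chosen with earlier results of these data known. Alternatives changed the batch terms, the reporters fitted together, the normalization, the filter on dim genes (lowest 25% by mean), the cluster rule, the variance prior and the replicate block, and left out 6 batch 4 arrays or each array in turn. Comparisons within batches 4, 5 and 6 with H4 parental or Zic1 arrays were chosen after seeing the data. The number of arrays limits the precision.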

Additional observations from a re-analysis of the deposited data

Results flagged for a closer look

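Gad1 read 7.75 in replicate 2 of Pou3f1 CD2 in batch 4, while the other 3 Pou3f1 CD2 arrays read 7.52 to 7.56, so that its gap to the nearest exceeded the critical share of the group's range in Dixon's test for 4 arrays. Of 27 such sets of 4 arrays tested, about 1 in 20 would pass by chance.

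The induced E3 parental CD14 cells, which lie alone in batch 0 and entered no comparison, averaged 10.38 for Chat and 11.58 for Slc5a7, both above the 4 YFP CD14 arrays (9.96 to 10.09 and 10.93 to 11.46). Batch and cells cannot be told apart there. The 1 uninduced E3 parental CD14 array read 7.47 for Gad1, above the 4 YFP CD14 arrays at 7.30 to 7.43.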

How the results depend on the processing

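Against the main counts of lines per gene, the following moved by more than 1.5 times. Slc5a7 fell in 2 lines with no batch terms, against 4. Slc17a6 rose in 2 lines with CD2 and CD14 arrays fitted apart, 2 without the 6 batch 4 arrays and 2 with all transcript clusters tested, against 4. Gad2 changed in 1 line with all transcript clusters tested and in 1 with the replicate block, against 2. Leaving out each array in turn gave 23 to 30 called pairs against YFP (28 with all arrays) and 19 to 22 between lines (21), with 4 to 5 lines for Chat, 2 to 5 for Slc18a3, 3 to 4 for Slc5a7, 2 to 4 for Slc17a6, 1 to 3 for Gad2, 0 to 1 for Slc32a1, 7 to 9 for Th and 0 for Gad1 and Slc6a5. The lowest total, 23, came without YFP CD2 replicate 2 of batch 3, and the highest, 30, without Hey1 replicate 1, which also raised Slc18a3 to 5 lines.

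Of the 49 called pairs, 22 kept their call without any 1 array, and all 49 kept their sign under every alternative run. Calls were kept by 38 with no batch terms, 47 with batch as a random block, 43 with the reporters apart, 41 without the 6 batch 4 arrays, 46 after a further quantile normalization, 43 with all clusters tested, 39 with the replicate block and 49 with a trended robust variance prior. Same-numbered arrays deviated together in some pairs of groups and not in others. Over 29 pairs of groups the correlation of same-numbered deviations ran from -0.17 to 0.57, above 0.1 in 10. With a replicate block, 23 of 225 estimable pairs were called against YFP, against 28 of 243.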
